A study of Mus musculus with 24 samples.

Results

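Glycogen synthesis and breakdown in mouse liver was followed through 9 genes: Ugp2, Gyg, Gys2 and Gbe1 of the synthetic route, Pygl and Phka2 of the degradative route, the phosphatase targeting subunits Ppp1r3b and Ppp1r3c, and the kinase gene Gsk3b. The genes were represented by every probe set whose only symbol in the platform annotation was 1 of these 9. That rule gave 22 of 45101 probe sets on the array, and 9 of the 18193 genes with a probe set of their own. All 9 genes were among the 13117 genes tested, since each had a probe set over the filter on low intensities, as did 21 of the 22 probe sets.

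The liver stores glucose as glycogen after feeding and releases it again between meals. UDP-glucose is added to a growing chain by glycogen synthase and the chain is branched, while phosphorylase removes glucose units as glucose 1-phosphate. Insulin favours storage and glucagon favours release, acting largely through phosphorylation of these enzymes, so that transcript levels are only a part of the control. Neither glycogen nor enzyme activity or phosphorylation was measured on these arrays.

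RNA from the livers of 24 male BALB/c mice went on 1 array each, in 4 groups of 6 taken from the sample labels. The mice were 6 weeks old when obtained. STZ mice received 185 mg/kg streptozotocin, a toxin of the insulin-producing beta cells, by intraperitoneal injection and were then fed the purified AIN93G diet for 14 days. STZ + 0.1% and STZ + 0.5% quercetin mice received the same injection and that diet with 0.1% or 0.5% of the plant flavonol quercetin. Control mice ate AIN93G for 14 days and had no injection, so that the effects of streptozotocin, of the injection and of citrate buffer cannot be told apart. All injected mice were admitted to the diets on a non-fasting blood glucose between 230 and 400 mg/dL. Cages held 3 mice, and no label ties a mouse to a cage, so the 6 mice of a group were treated as independent. Precision was limited by the number of arrays.

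Deposited mean intensity ranged from 61.0 to 102.0 per array, and values were therefore quantile normalized and are given below as normalized intensity. Of 6 hepatocyte markers, 5 were tested, and their summed intensity lay between 28189 and 31444 in STZ mice, 29112 and 30223 at 0.1%, 28172 and 30053 at 0.5%, and 28419 and 29806 in controls. None of the 5 passed the test in any comparison. Alb, Ttr and Apoa1, which carried most of this sum, lay at percentiles of 99.98 to 99.99 by mean. Quantile normalization gives the top ranks of each array the same values, so this sum had little room to vary. Of 7 Kupffer cell and macrophage markers, 4 were higher in STZ mice and 4 at 0.1% quercetin against control, with sums of 1312 to 1699 in STZ mice, 1364 to 1615 at 0.1%, 850.5 to 1527 at 0.5% and 863 to 1146 in controls. Of 2 exocrine pancreas markers tested of 5, 1 was lower in the same pair of comparisons, with sums of 175 to 263 in STZ mice, 162 to 302 at 0.1%, 200.5 to 575 at 0.5% and 476 to 649 in controls, while Cpa1 and Ctrb1 lay under the filter. Cela1 made up most of these sums, at a mean intensity of 318 over the arrays, against 12.1 for Prss2. The exocrine pancreas sum is thus close to a reading of this 1 gene, here and below, and not of a cell type. Of 4 stellate cell markers, 1 was higher in that same pair of comparisons. No marker of the bile duct, endothelial, skeletal muscle or B and T cell lists passed anywhere. The difference between the 3′ and 5′ Gapdh control probe sets, a measure of how complete the labelled RNA was, averaged -0.34 ± 0.10 in STZ mice, -0.32 ± 0.15 at 0.1%, -0.21 ± 0.17 at 0.5% and -0.04 ± 0.17 in controls (log2, SD, n = 6 each). Replicates 5 and 6 at 0.5% lay among the controls for Ugp2 and Ppp1r3c, as given below. For these 2 genes the differences of 0.5% from control are stated with and without the pair. Other comparisons at 0.5% are given with all 6 mice unless stated. The Gapdh difference of this pair was -0.06 and 0.01, against -0.40 to -0.14 in the other 4 mice at 0.5%. Their Kupffer cell sums were 881 and 850.5, against 1382 to 1527 in the other 4, and their exocrine pancreas sums were 487 and 575, against 200.5 to 306.

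**Figure D1:**
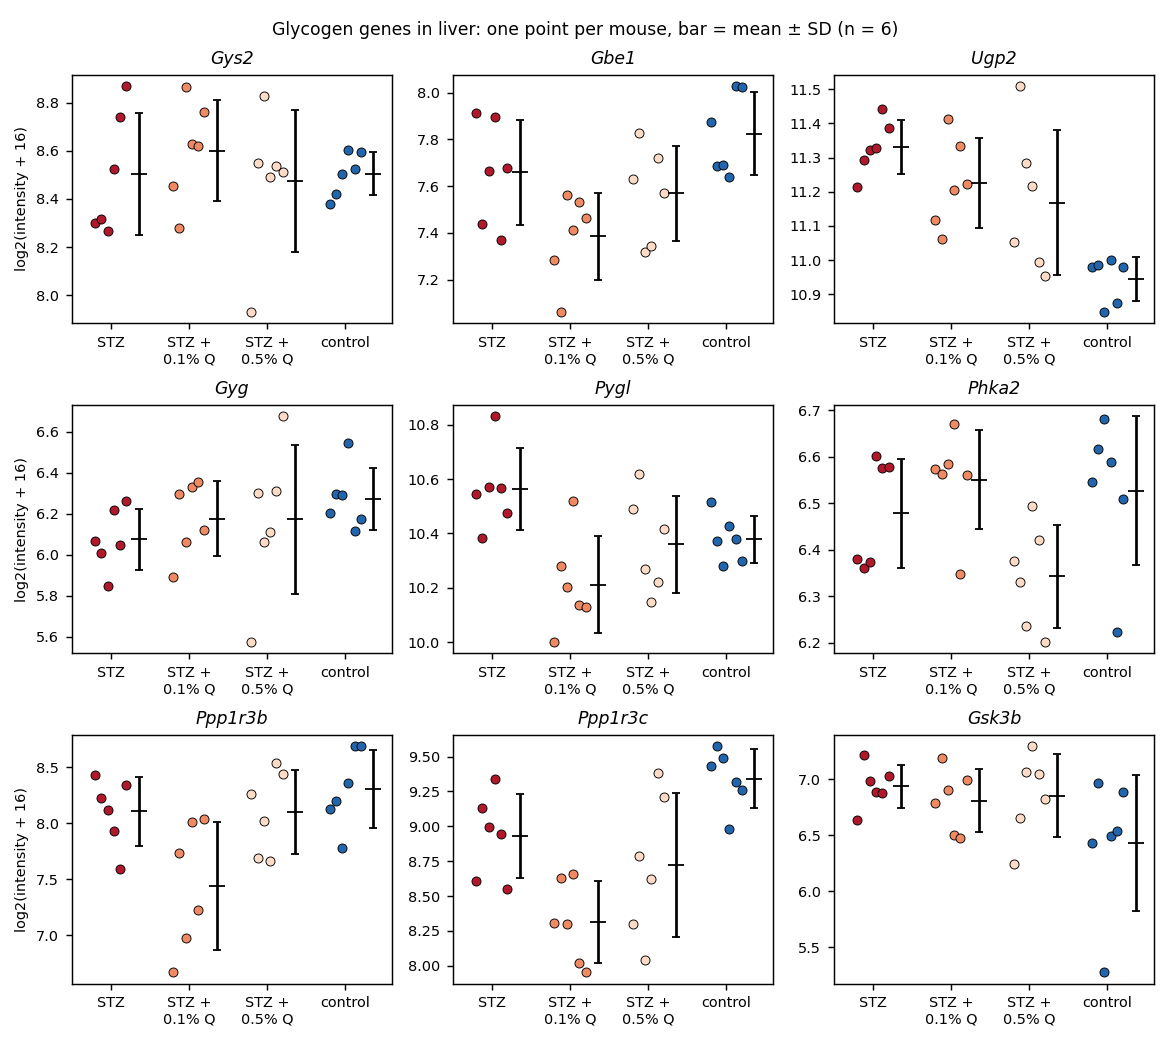
Log2(normalized intensity + 16) of the 9 glycogen genes in each of the 24 livers, 1 point per mouse, with the group mean ± SD (n = 6) as a bar beside the points; in each panel the groups run STZ, STZ + 0.1% quercetin (Q), STZ + 0.5% quercetin and control. All 6 STZ points of Ugp2 lie above all 6 control points, and all 6 points at 0.1% quercetin of Ppp1r3c and Gbe1 lie below all 6 control points.

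The comparison of STZ with control mice asked which genes of hepatic glycogen metabolism differed in diabetic livers. Ugp2 rose, by 1.31-fold, and no other gene of the group passed the test. The liver synthase gene Gys2 had nearly the same mean in both groups. Calls were made with limma over all 13117 genes at a Benjamini-Hochberg adjusted p of 0.05, and 3.72% of the genes passed in this comparison, 2.03% as higher. Leaving out STZ replicate 6 cut the calls over all genes to 142 higher and 100 lower, STZ replicate 3 to 193 and 130, and control replicate 3 to 189 and 114. For the glycogen genes the count was 1 of 9, higher, with a median log2 difference of -0.05, against -0.02 over all genes.

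Ugp2 encodes UDP-glucose pyrophosphorylase, which makes the activated glucose used for glycogen. Its intensity was 2361 at the lowest, 2549 at the median and 2769 at the highest in STZ mice, against 1827, 2002 and 2031 in controls. The lowest STZ value thus exceeded the highest control value, a separation found for 4.19% of all genes. The log2 difference was 0.39 (SE 0.09, limma adjusted p = 0.00972). A change in the number of cells of a type and a change in RNA per cell cannot be told apart in tissue RNA. This holds here and in any result that follows. All 5 Ugp2 probe sets had higher means in STZ mice, by 0.36 to 0.44, and 3 of them passed when each probe set was tested on its own. The call was lost on the intensities as deposited (0.42, adjusted p = 0.281), with arrays scaled to a common median (0.27, adjusted p = 0.200) and with the Gapdh 3′ minus 5′ difference as a covariate (0.20, adjusted p = 0.558). With that covariate the calls over all genes in this comparison numbered 4 higher and 2 lower, and 266 and 222 without it. The Gapdh difference had a lower mean in STZ mice than in controls. Its effect and that of the injection therefore cannot be told apart in this fit. The Ugp2 call was kept in all 24 fits that left out 1 array. The Kupffer cell and exocrine pancreas sums above moved with the same groups, and their part in this result was not tested.

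**Figure D2:**
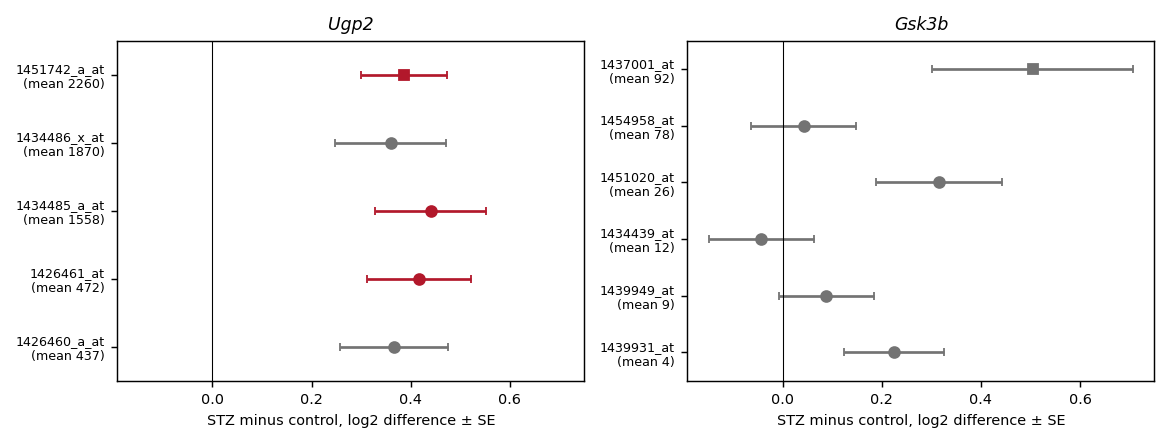
Log2 difference of STZ minus control mice, with its SE (6 mice a group), for every probe set of Ugp2 (left) and Gsk3b (right), labelled with its mean intensity over the 2 groups; squares mark the probe set used for the gene, and red an adjusted p under 0.05 over all probe sets. The 5 Ugp2 probe sets lie between 0.36 and 0.44, while the 6 Gsk3b probe sets run from -0.04 to 0.50.

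The rest of the synthetic route did not pass. Gyg, which primes new chains, had intensities of 41.7, 50.6 and 60.8 (lowest, median, highest) in STZ mice and 53.3, 60.0 and 77.4 in controls. The groups overlapped, and the log2 difference was -0.19 (SE 0.13, limma adjusted p = 0.468). Gys2, the liver glycogen synthase, had 292, 327 and 452 in STZ mice against 317, 349.6 and 373 in controls. STZ mice lay on both sides of the control range, and the interval of the log2 difference ran from -0.26 to 0.25 (95%). Gbe1, the branching enzyme, had 149, 188 and 225 in STZ mice against 183, 205 and 245 in controls, with a log2 difference of -0.16 (SE 0.11, limma adjusted p = 0.500).

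Among genes of breakdown, Pygl encodes the liver phosphorylase. It had 1319, 1491 and 1807 in STZ mice against 1229, 1313 and 1448 in controls, and 4 of 6 STZ values exceeded the highest control. The log2 difference of 0.18 (SE 0.09) did not pass (limma adjusted p = 0.317). Phka2, the liver regulatory subunit of phosphorylase kinase, had 66.2, 73.3 and 81.1 in STZ mice and 58.7, 78.8 and 86.5 in controls. No STZ mouse lay outside the control range of Phka2 (log2 difference -0.05, SE 0.08).

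The targeting subunits bring protein phosphatase 1 to the glycogen particle, where it activates the synthase and inactivates phosphorylase. Ppp1r3b had 177, 273 and 329 in STZ mice against 204, 296 and 397 in controls, a log2 difference of -0.20 (SE 0.21, limma adjusted p = 0.696). Ppp1r3c had 359.6, 487 and 633 in STZ mice against 489.7, 649 and 746 in controls. Of the STZ mice, 3 lay below all controls, and the log2 difference of -0.41 (SE 0.18) did not pass (limma adjusted p = 0.243). The second Ppp1r3c probe set gave -0.18 (SE 0.17, limma adjusted p = 0.681 over all probe sets), with no STZ mouse below all controls. Gsk3b, a kinase that inactivates glycogen synthase, had 83.4, 106 and 133 in STZ mice against 22.7, 75.5 and 109.5 in controls. The groups overlapped, with a log2 difference of 0.50 (SE 0.20, limma adjusted p = 0.195), and without control replicate 3, the array at 22.7, it was 0.27 (adjusted p = 0.444). The other 5 Gsk3b probe sets differed by -0.04 to 0.32, and none of the 6 passed.

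At 0.1% quercetin, set against control mice, 4 of the 9 genes passed, 1 higher and 3 lower. Ppp1r3c was 0.489 times its control level, Ppp1r3b 0.548 times and Gbe1 0.738 times, while Ugp2 was higher by 1.22-fold. Over all genes, 5.57% passed in this comparison, 2.94% as higher and 2.64% as lower. Without replicate 5 at 0.1% the calls over all genes numbered 243 higher and 195 lower, and without replicate 6 they numbered 249 and 213. The median log2 difference of the 9 was -0.09, against -0.01 over all genes. Injection and quercetin both differ between these groups, so that their effects cannot be told apart here. The Kupffer cell and exocrine pancreas sums moved with these groups too, and their part was not tested.

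Ppp1r3c had 232, 299.8 and 388 at 0.1% quercetin against 489.7, 649 and 746 in controls. Every mouse at 0.1% lay below every control mouse. The log2 difference was -1.03 (SE 0.18, limma adjusted p = 0.00128). The second Ppp1r3c probe set gave -0.65 (SE 0.17, adjusted p = 0.0241 over all probe sets), with 4 of 6 mice below all controls.

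Gbe1 had 117.5, 157 and 173 at 0.1% quercetin against 183, 205 and 245 in controls, again without overlap. Its log2 difference was -0.44 (SE 0.11, limma adjusted p = 0.0189), and without control replicate 6 it was -0.40 (adjusted p = 0.0505). Groups without overlap were found for 3 of the 9 genes, namely Ppp1r3c, Gbe1 and Ugp2, and for 3.93% of all genes.

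Ppp1r3b had 85.7, 165 and 247 at 0.1% quercetin against 204, 296 and 397 in controls. Of the treated mice, 4 of 6 lay below all controls, and this group had the widest spread of the gene (log2 SD 0.57 at 0.1%, and 0.35 in controls). The log2 difference was -0.87 (SE 0.21, limma adjusted p = 0.0141). The single Ppp1r3b probe set leaves no second reading of this gene.

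Ugp2 had 2121, 2360.3 and 2712 at 0.1% quercetin against 1827, 2002 and 2031 in controls. All 6 mice lay above all controls, with a log2 difference of 0.28 (SE 0.09, limma adjusted p = 0.0484). This call was close to the threshold: it held in 5 of the 24 fits without 1 array, namely those without replicate 2 at 0.1% or without replicate 1, 2, 5 or 6 at 0.5%. It held in 4 of 13 other settings. All 5 Ugp2 probe sets had higher means at 0.1% quercetin than in controls, by 0.14 to 0.29, and none passed on its own (adjusted p = 0.0624 over all probe sets for the one used).

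With the values as deposited, only Ppp1r3c of the 4 genes kept its call. With the Gapdh difference as a covariate, 3 genes of the array were called higher and 1 lower at 0.1% quercetin against control, and 385 and 346 without it. None of the 4 was among them: Ppp1r3c was at -0.73 (adjusted p = 0.131), Ppp1r3b at -0.69 (adjusted p = 0.284), Gbe1 at -0.51 (adjusted p = 0.126) and Ugp2 at 0.11 (adjusted p = 0.684). Since the Gapdh difference had a lower mean at 0.1% than in controls, its effect and that of treatment cannot be told apart here. Pygl, Phka2, Gyg, Gys2 and Gsk3b did not pass against control at 0.1% quercetin, with log2 differences between -0.17 (Pygl) and 0.38 (Gsk3b).

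**Figure D3:**
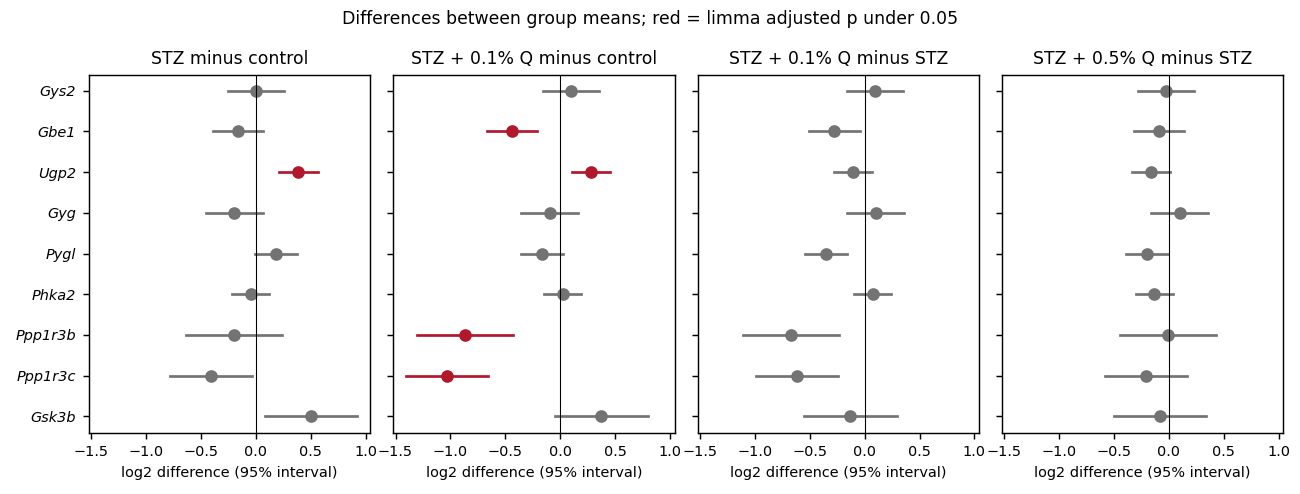
Log2 difference of each glycogen gene with its 95% interval from the limma fit, in 4 panels: STZ minus control, STZ + 0.1% quercetin (Q) minus control, STZ + 0.1% quercetin minus STZ and STZ + 0.5% quercetin minus STZ. Red points pass the adjusted threshold: Ugp2 in STZ mice, and Ppp1r3c, Ppp1r3b, Gbe1 and Ugp2 at 0.1% quercetin, all against control.

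The 250 bases before the annotated start of Ppp1r3c, Ugp2 and Gbe1, the called genes with an entry in the table used, are shown to set their promoter letters beside their changes. They come from RefSeq on GRCm38.p6, at chr19:36736605-36736854 (minus strand) for Ppp1r3c, chr11:21371268-21371517 (minus strand) for Ugp2 and chr16:70313699-70313948 (plus strand) for Gbe1. Capitals mark CACGTG (an E-box, the site form bound by carbohydrate response and clock factors) and CCAAT or its reverse complement ATTGG, and each run is read 5′ to 3′ on the strand of the gene.
Ppp1r3c: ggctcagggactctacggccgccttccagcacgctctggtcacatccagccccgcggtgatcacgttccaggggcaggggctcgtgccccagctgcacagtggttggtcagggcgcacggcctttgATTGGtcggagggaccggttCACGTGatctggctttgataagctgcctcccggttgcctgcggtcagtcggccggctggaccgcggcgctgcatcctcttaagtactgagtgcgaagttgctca
Ugp2: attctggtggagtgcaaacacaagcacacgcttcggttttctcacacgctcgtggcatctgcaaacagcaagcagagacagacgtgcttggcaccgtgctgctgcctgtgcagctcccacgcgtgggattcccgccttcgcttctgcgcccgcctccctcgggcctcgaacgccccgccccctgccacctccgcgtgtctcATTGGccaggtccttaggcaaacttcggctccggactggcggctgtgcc
Gbe1: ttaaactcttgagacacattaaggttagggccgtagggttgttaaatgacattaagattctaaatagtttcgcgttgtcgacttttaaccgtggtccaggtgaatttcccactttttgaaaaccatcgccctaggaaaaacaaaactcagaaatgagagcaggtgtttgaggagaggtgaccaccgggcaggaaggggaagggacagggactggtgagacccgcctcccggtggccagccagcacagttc

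Of the 9 genes, 7 matched that table, and Gys2 and Ppp1r3b did not. Over 27025 promoters of the same 250-base length, read on both strands, CACGTG was present in 6.04%, CCAAT in 34.5%, the forkhead core TGTTTAC in 3.06%, the cAMP response element TGACGTCA in 1.6% and the D-box TTATGTAA in 0.862%. Among the 7 genes, Ppp1r3c alone held CACGTG, at 104 bases before the start, with ATTGG at 124 bases. Ugp2 held ATTGG at 49 bases. Gsk3b held CCAAT or its complement at 215, 132 and 18 bases. None of these motifs was found in the windows of Gbe1, Pygl, Phka2 or Gyg. These are matches of letters, and no factor binding was measured.

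Quercetin at 0.1%, set against STZ mice on the plain diet, asked whether the diet altered these genes in diabetic livers. No gene of the 13117 passed at the adjusted threshold (0%), so none of the 9 did. At an unadjusted p under 0.05 stood 4 of the 9, all lower at 0.1%, and 5.24% of all genes. The median log2 difference of the 9 was -0.13, against 0.01 over all genes.

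Pygl had 1008, 1137 and 1454 at 0.1% quercetin against 1319, 1491 and 1807 in STZ mice. Of the quercetin mice, 5 of 6 lay below all STZ mice, and the log2 difference was -0.35 (SE 0.09, limma adjusted p = 0.871). By unadjusted p it ranked 9 of 13117. Ppp1r3b had 85.7, 165 and 247 at 0.1% against 177, 273 and 329 in STZ mice. Its log2 difference was -0.67 (SE 0.21, limma adjusted p = 0.871), and 3 of the 6 were under the lowest STZ value. Ppp1r3c had 232, 299.8 and 388 at 0.1% against 359.6, 487 and 633 in STZ mice, with 4 of 6 mice below them all (log2 difference -0.62, SE 0.18, limma adjusted p = 0.871). Gbe1 differed by -0.27 (SE 0.11, limma adjusted p = 0.885). The intervals of these 4 differences excluded 0 before adjustment, and their sizes ran up to a 37.0% lower value for Ppp1r3b.

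For the other 5 genes the 95% interval of the difference at 0.1% quercetin against STZ included 0. It ran from -0.16 to 0.35 for Gys2, from -0.28 to 0.07 for Ugp2, from -0.10 to 0.24 for Phka2, from -0.16 to 0.36 for Gyg and from -0.55 to 0.29 for Gsk3b. With all mice Ugp2 thus had means in the order STZ, 0.1%, 0.5% and control, and the neighbours STZ and 0.1% did not differ beyond the spread. Nor did 0.5% and 0.1% (log2 difference -0.06, SE 0.09). The sign of that difference was reversed without the pair at 0.5% that lay among the controls, and with the Gapdh covariate. On another Ugp2 probe set the mean at 0.5% was slightly under that of controls (-0.03, SE 0.11). The order is therefore not evidence of a graded effect of dose.

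At 0.5% quercetin against STZ, again no gene of the array passed (0%), and 1 of the 9 glycogen genes had an unadjusted p under 0.05, with 7.51% of all genes. That gene was Pygl, at 1119, 1284 and 1558 in 0.5% mice against 1319, 1491 and 1807 in STZ mice. The log2 difference was -0.20 (SE 0.09, limma adjusted p = 0.631), and 3 of the 6 were under the lowest STZ value. Ppp1r3b had 187, 267 and 356 at 0.5% against 177, 273 and 329 in STZ mice. Its difference was -0.01, with an interval from -0.44 to 0.43. Replicates 5 and 6 at 0.5% stood at 356 and 332, above all STZ mice, and the others at 0.5% ran from 187 to 290. The difference near 0 thus rests in part on these replicates. The median over the 9 genes was -0.09, against 0.00 over all genes.

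Against control, 0.5% quercetin gave no call among the 9 genes (limma), with 0.13% of all genes called, 7 as higher and 10 as lower. At an unadjusted p under 0.05 stood 5 of the 9, and 12.3% of all genes. Ppp1r3c had 248, 402 and 650.0 at 0.5% against 489.7, 649 and 746 in controls, a log2 difference of -0.62 (SE 0.18, limma adjusted p = 0.149). Within the 0.5% group, replicates 5 and 6 stood at 650.0 and 577, inside the control range, and the other 4 mice lay between 248 and 426, below all controls. Without replicates 5 and 6, a pair singled out with their values known, Ppp1r3c differed by -0.90 (SE 0.17, limma adjusted p = 0.00169). Without replicate 5 alone it differed by -0.75 (adjusted p = 0.0323). Calls over all genes moved with these arrays too, to 232 higher and 193 lower without the pair, 74 and 59 without replicate 5, and 87 and 60 without replicate 6. The second Ppp1r3c probe set, with all 6 mice, gave -0.32 (SE 0.17, limma adjusted p = 0.474 over all probe sets).

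Ugp2 showed the same 2 mice at 2022 and 1966, inside the control range, where the other 4 ran from 2106 to 2901. With all 6 mice its difference from control was 0.22 (SE 0.09, limma adjusted p = 0.266), and without the pair it was 0.32 (adjusted p = 0.0396). The pair was singled out with these values known, and leaving out mice inside the control range was bound to widen the difference. The adjusted p without the pair is therefore not an independent test. The other Ugp2 probe sets, with all 6 mice, ran from -0.03 to 0.20 and so differed in sign, and none passed. With all 6 mice and the Gapdh difference as a covariate, Ugp2 differed by 0.12 (adjusted p = 0.655) and Ppp1r3c by -0.43 (adjusted p = 0.431) at 0.5% quercetin against control. The Gapdh difference had a lower mean at 0.5% than in controls as well, with the same limit. The part of the marker sums was not tested. Gbe1 had 143, 178 and 211 at 0.5% against 183, 205 and 245 in controls (log2 difference -0.26, SE 0.11, limma adjusted p = 0.349).

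Between the 2 quercetin doses no gene of the array passed (0% called), and 3 of the 9 had an unadjusted p under 0.05, beside 8.34% of all genes. Ppp1r3b was higher by 0.66 at 0.5% than at 0.1% (SE 0.21, limma adjusted p = 0.423), with 3 of 6 mice above all those at 0.1%, replicates 5 and 6 among them. Ppp1r3c differed by 0.41 (SE 0.18, limma adjusted p = 0.551) and Phka2 by -0.21 (SE 0.08, limma adjusted p = 0.524). The other Phka2 probe set over the filter, dim at a mean intensity of 10.1 at 0.5%, differed by 0.003 (SE 0.12). Replicates 5 and 6 had the highest log2 levels at 0.5%, at 8.54 and 8.44 for Ppp1r3b and 9.38 and 9.21 for Ppp1r3c. They were kept in these differences and in the trend that follows. A linear trend on the percentage of quercetin over the 18 injected mice passed for no gene of the array (0%), and 1 of the 9, Phka2, stood with 8.13% of all genes at an unadjusted p under 0.05. Slopes of the 9 genes ran from -0.34 for Phka2 to 0.46 for Ppp1r3b, in log2 units per 1% of the diet, and Ppp1r3c, with its lowest mean at the middle dose, had a slope close to 0.

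Ppp1r3c had log2 means of 8.93 ± 0.30 in STZ mice, 8.31 ± 0.30 at 0.1%, 8.72 ± 0.51 at 0.5% and 9.34 ± 0.21 in controls (SD, n = 6 each). Its order from low to high was thus 0.1%, 0.5%, STZ and control, and only the ends of that order differed past the threshold. Gbe1 and Ppp1r3b also had their lowest mean at 0.1% and their highest in controls. Gys2 had log2 means of 8.50 ± 0.25 in STZ mice, 8.60 ± 0.21 at 0.1%, 8.47 ± 0.29 at 0.5% and 8.50 ± 0.09 in controls, and none of its comparisons passed.

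Other genes of glycogen metabolism gave no call in any comparison. Of 25 such genes listed, 20 were tested. Gys1, the muscle synthase, Phkg1 and Ppp1r3d lay under the filter. Gyg1 is another symbol of the member Gyg, and no probe set carried it as its single symbol in the table used. In STZ against control mice 2 of the 20 had an unadjusted p under 0.05, where 16.7% of all genes did, and the smallest p-values belonged to Pygb, the brain phosphorylase (0.28, SE 0.11, limma adjusted p = 0.183), the targeting subunit gene Ppp1r3g (0.32, adjusted p = 0.243) and Gsk3a (-0.19, adjusted p = 0.315). At 0.1% quercetin against control it was again 2 of the 20, where 18.9% of all genes had such a p, and these were Phkb, a subunit of phosphorylase kinase (-0.36, adjusted p = 0.152), and Stbd1, a glycogen-binding protein (0.51, adjusted p = 0.189). Ppp1r3g, at an unadjusted p of 0.00559, was lower by 0.43 at 0.1% quercetin than in STZ mice (limma adjusted p = 0.871). The median of the 20 genes was -0.02 in STZ against control, as it was over all genes.

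Genes that bring glucose 6-phosphate into and out of the pool were tested for 8 of 9 listed, and none passed anywhere with limma. All 8 had positive differences in STZ against control mice, with a median of 0.14 against -0.02 over all genes, and 2 of them had an unadjusted p under 0.05, where 16.7% of all genes did. The glucose transporter gene Slc2a2 was at 0.26 (SE 0.10, limma adjusted p = 0.166), and the glucose 6-phosphate transporter gene Slc37a4 at 0.30 (adjusted p = 0.237). For Slc2a2, 6 of 6 STZ mice lay above all controls, where 4.19% of all genes had groups without overlap. G6pc, the catalytic subunit of glucose 6-phosphatase, differed by -0.97 (SE 0.30, limma adjusted p = 0.871) at 0.1% quercetin against STZ and by 1.00 (adjusted p = 0.392) at 0.5% against 0.1%.

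Of 19 genes that carry hormone signals to glycogen, 15 were tested and 1 passed, in STZ and in 0.1% quercetin mice against control. Over all genes, 3.72% and 5.57% passed in these comparisons. Gcgr, the glucagon receptor, fell by 0.26 on the log2 scale in STZ mice against control (SE 0.07, limma adjusted p = 0.0265) and by 0.30 at 0.1% quercetin against control (SE 0.07, limma adjusted p = 0.00661). In both, 6 of 6 mice lay below all controls, and groups without overlap were found for 4.19% and 3.93% of all genes. At 0.5% the difference was -0.30 (limma adjusted p = 0.0536). Akt2, a kinase downstream of the insulin receptor, differed by -0.30 in STZ mice against control (SE 0.09, limma adjusted p = 0.0583). Its 6 STZ mice lay below all controls, where 4.19% of all genes had groups without overlap.

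The glycogen genes did not move as 1 block from mouse to mouse. After group means were removed, Pearson r over the 24 arrays for the 36 pairs of the 9 genes ran from -0.44 (Ugp2 with Ppp1r3b) to 0.51 (Gys2 with Ugp2). Without that removal, the genes most like Gys2 over the same arrays were Cyp2g1 (r = 0.79), Bnip3 (0.76) and Ppp1cc, a catalytic subunit of protein phosphatase 1 (0.76). Those most like Pygl were Khk, the fructokinase (0.76), Elovl6, a fatty acid elongase (0.72), and 4933427D14Rik (0.71). Those most like Ppp1r3b were Dnajb2, Sec61b and Rspry1 (0.70 each), and those most like Ppp1r3c were Rgn, the water channel gene Aqp8 and the choline transporter gene Slc44a1 (0.86 each). These are descriptions over arrays that share the group differences.

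Gys2 varied within groups along with the clock output gene Dbp. The light cycle of the housing is stated, and the hour at which each liver was taken is not given in the sources used here. After group means were removed, Pearson r of Gys2 with Dbp was 0.78 over 24 mice (permutation p = 1e-05, the smallest that 100000 permutations can give, adjusted p = 0.00027), and Spearman rho was 0.73 (permutation, adjusted p = 0.0054). Without the 2 mice farthest from the median of Dbp, r was 0.70. Within groups it was 0.83 in STZ mice, 0.92 at 0.1%, 0.73 at 0.5% and 0.77 in controls (n = 6 each). Replicates 1 and 2 had the lowest Dbp levels at 0.1%, at 0.5% and in controls, and replicates 1 and 3 in STZ mice. The permutations did not take the replicate number into account. With the means of the number removed as well, a step chosen after seeing the data, r of Gys2 was 0.56 with Dbp and -0.51 with Arntl, given without a test.

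With Arntl, the core clock gene that encodes BMAL1, r of Gys2 was -0.74 (permutation, adjusted p = 0.00162), rho was -0.71 (adjusted p = 0.0081), and r was -0.76 without the 2 farthest mice. Of the 11 clock genes listed, all were tested and none passed between groups in any comparison (limma). At an unadjusted p under 0.05 stood 5 of the 11 at 0.1% quercetin against STZ, where 5.24% of all genes did, 2 at 0.5% quercetin against STZ (7.51%), 2 between the doses (8.34%), and 1 each in STZ, 0.1% and 0.5% quercetin mice against control (16.7%, 18.9% and 12.3%). Dbp was 1 of these 5, higher by 2.83-fold at 0.1% quercetin than in STZ mice (limma adjusted p = 0.871). Dbp itself averaged a log2 level of 7.31 ± 1.12 in STZ mice, 8.81 ± 0.75 at 0.1%, 8.34 ± 1.31 at 0.5% and 8.05 ± 0.77 in controls (SD, n = 6 each). With the Dbp level as a covariate, a setting added with the values known, Gys2 differed by 0.13 (SE 0.09, limma adjusted p = 0.529) in STZ against control mice.

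**Figure D4:**
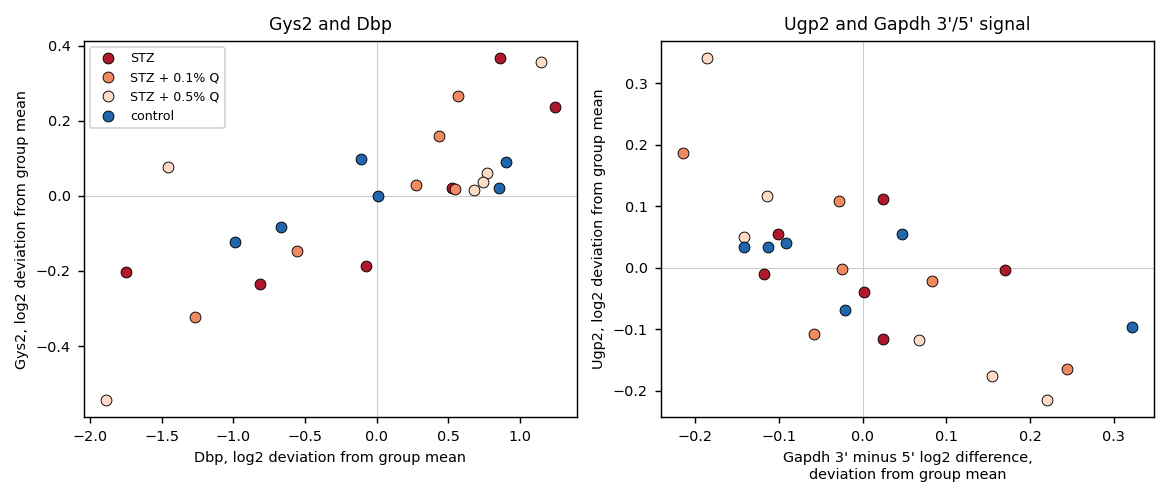
Within-group deviations (log2, group mean removed) of 24 livers: Gys2 against Dbp, and Ugp2 against the Gapdh 3′ minus 5′ difference, with points coloured by group (Q, quercetin). Gys2 follows Dbp upward (r = 0.78) and Ugp2 runs downward against the Gapdh difference (r = -0.71).

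Ugp2 varied with the Gapdh 3′ minus 5′ difference, at r = -0.71 (permutation, adjusted p = 0.00297) and rho = -0.69 (permutation, adjusted p = 0.0201) after group means were removed. Without the 2 farthest mice r was -0.70. Within groups it was -0.13 in STZ mice, -0.79 at 0.1%, -0.92 at 0.5% and -0.71 in controls (n = 6 each), so the relation was not seen in STZ mice. These were 27 relations in all, of the 9 genes with Dbp, Arntl and the Gapdh difference, chosen after values were seen. Of the 27, these 3 passed after Benjamini-Hochberg adjustment.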

How the data were processed

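Liver RNA of 24 mice was labelled with biotin and hybridised, 1 array per mouse, per the labels' protocols. For each of 45101 probe sets, 64 of them controls, the authors deposited 1 intensity per array, on what was read as a linear scale. The summary algorithm and any scaling by the authors before deposition are not given in the sources used here. Array medians of 4.96 to 7.98 showed no common scaling and no centring, and the target of any scaling is unknown. Of the probe sets other than controls, 34945 had 1 symbol in the platform table, 932 several and 9160 none.

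Intensities were quantile normalized and converted to log2(value + 16), which understates folds of dim genes. Each gene was its probe set of highest mean, and genes under the 40th percentile of probe set means were left out, leaving 13117. A single limma fit (version 3.58.1, R 4.3.3) of 4 group means gave all two-sided comparisons, with Benjamini-Hochberg adjustment over all genes and a threshold of 0.05. Named genes were all members, the called genes or those of smallest p (up to 3) of each further list, and the 3 genes most like Gys2, Pygl, Ppp1r3b and Ppp1r3c. Relations over mice used 100000 permutations. The pipeline was tested on simulated data. Members and lists were chosen with earlier results of these data known, and 1 listed gene is not reported here. Alternatives covered the scaling, pseudocount, filter, probe set rule, variance prior, arrays fitted, a replicate block and covariates. Where nothing ties mice to cages or days, p-values measure the spread between these arrays.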

Additional observations from a re-analysis of the deposited data

Results flagged for a closer look

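In each of 36 combinations of gene and group, the most extreme of the 6 mice was compared with its nearest neighbour, as a share of the group's range. Dixon's 95% critical value for this share is passed by chance in about 5% of groups. It was passed by 2 mice. Replicate 5 at 0.1% quercetin had a Phka2 log2 level of 6.35, where the other 5 ran from 6.56 to 6.67 (share 0.664). Control replicate 3 had a Gsk3b level of 5.28, where the other 5 controls ran from 6.44 to 6.97 (share 0.684). This array also had the highest Gapdh 3′ minus 5′ difference of the 24, at 0.28. With group means removed, r of Gsk3b with the Gapdh difference was -0.44 (permutation, adjusted p = 0.387). Neither gene passed the test in any comparison.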

How the results depend on the processing

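Each difference was recomputed under 13 other settings and in 24 fits without 1 array, giving 1998 values over the 9 genes and the 6 comparisons between groups. Of these, 1897 kept their sign and side of the threshold, 37 lost a call, 4 gained one and 60 changed sign. No value that changed sign belonged to a called difference, and the main differences concerned were at most 0.18 in size. In STZ against control, 0 members were called on values as deposited, 0 with median scaling and 0 with the Gapdh covariate. At 0.1% quercetin against control, 1 was called as deposited and 0 with the Gapdh covariate, and 2 to 4 without 1 array. At 0.5% against control, 1 was called with median scaling, and 0 to 1 without 1 array. Without arrays 5 and 6, a pair singled out with their values known, 2 were called. The cause of these changes was not tested.

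Sign changes under other settings were as follows. With the Gapdh covariate, Gsk3b (0.5% against STZ) was 0.066, Gyg (0.1% against control) 0.051, Gys2 (0.1% against control) -0.023, Gys2 (0.5% against STZ) 0.027, Pygl (0.5% against control) 0.0085 and Ugp2 (0.5% against 0.1%) 0.0088. With the Dbp covariate, Gyg was -0.0095 (0.1% against STZ) and 0.031 (0.5% against 0.1%), and Gys2 was -0.034 (0.1% against control), -0.16 (0.1% against STZ) and 0.13 (STZ against control). As deposited, Gsk3b (0.5% against 0.1%) was -0.024, Gyg (0.5% against STZ) -0.024, Gys2 (STZ against control) 0.11 and Phka2 (STZ against control) 0.054. With median scaling, Gsk3b (0.5% against 0.1%) was -0.044, Gyg (0.5% against STZ) -0.0095 and Phka2 (0.1% against control) -0.028. With probe sets averaged, Gsk3b was -0.030 and Gyg 0.033 (0.5% against 0.1%), and Phka2 was 0.063 (0.5% against control) and 0.14 (STZ against control). With a pseudocount of 64, Gyg was 0.0046 (0.5% against 0.1%) and Gys2 0.00048 (STZ against control). Without arrays 5 and 6 of 0.5%, Gyg was -0.064 (0.5% against STZ), Pygl 0.0038 (0.5% against control) and Ugp2 0.040 (0.5% against 0.1%).

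Without 1 array, ranges that crossed 0 were -0.17 to 0.038 for Gsk3b, -0.0037 to 0.22 for Gyg, -0.10 to 0.080 for Gys2 and -0.11 to 0.081 for Ppp1r3b (0.5% against STZ), -0.043 to 0.17 for Gsk3b and -0.10 to 0.12 for Gyg (0.5% against 0.1%), -0.20 to 0.022 for Gyg, -0.10 to 0.079 for Gys2 and -0.070 to 0.024 for Pygl (0.5% against control), -0.075 to 0.046 for Gys2 (STZ against control) and -0.037 to 0.064 for Phka2 (0.1% against control).

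Scaling moved the balance of calls over all genes. In STZ against control, 266 were higher and 222 lower, against 120 and 41 as deposited and 170 and 278 with median scaling. At 0.1% against control the counts were 385 and 346, 127 and 90, and 222 and 539. At 0.5% against control they were 7 and 10, 2 and 6, and 37 and 649, and no filter left 0 and 3. The Gapdh covariate left 4 and 2, 3 and 1, and 0 and 0. Its mean differed between injected and control mice, so that its effect and that of treatment cannot be told apart. Without 1 array the calls over all genes ran from 242 to 547, 438 to 816, and 1 to 147. Neither scaling moved the median of all genes by over 0.1 except for the dose slope (-0.15 as deposited and -0.14 with median scaling, per 1% of the diet).

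Over all genes, array numbers shared by the groups did not meet the criterion for pairing, although Dbp varied with them: over 36 pairs of equal number the correlation of deviations ran from -0.14 to 0.32, 5 pairs were over 0.1, and 5 of 24 arrays correlated best with their own number. With the replicate block, 1 member was called in STZ against control, 3 at 0.1% against control (Ugp2 at 0.28, adjusted p = 0.0758) and 0 elsewhere. No detection call or background signal was used, and 6 arrays a group set the width of the intervals.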
